A study of Mus musculus with 8 samples.

Results

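Chemokines are small secreted proteins that guide leukocytes along gradients, and their receptors are G protein-coupled receptors on the migrating cells. Expression of this family was compared in livers of mice with a mutated clock gene. The genes were taken by symbol: all genes measured by a probe with a single annotated symbol of the forms Ccl, Cxcl, Cx3cl, Xcl, Ccr, Cxcr, Cx3cr, Xcr or Ackr. This gave 56 genes, 35 ligands and 21 receptors, measured by 74 probes, out of 19532 named genes in the table. Total RNA of the liver was measured on 1-colour Agilent arrays, 1 array per mouse, in 4 mice with the mPer2Brdm1 mutation and 4 wild-type (WT) mice. Per2 is a repressor of the circadian clock, and the mutation is known as a deletion within the gene. All 8 mice were of a mixed 129sv and C57Bl/6 background, came from 1 cohort and were killed after 8 h of starvation; age, sex and the hour of death are not given in the sources used here.

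Chemokines are grouped by the spacing of their first cysteines into CC, CXC, CX3C and XC ligands, and receptors are named after the group they bind. Inflammatory chemokines are made on demand by Kupffer cells (the resident liver macrophages), endothelium, stellate cells and hepatocytes under cytokine and Toll-like receptor signals, and they draw monocytes, neutrophils and activated lymphocytes. Homeostatic chemokines are made without such a stimulus and position lymphocytes and stem cells. Atypical receptors (Ackr genes) bind chemokines without G protein signalling and remove them or shape their gradients.

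The deposited values are normalised logarithms from which the probe median of the 8 arrays had been taken off, so they give differences between mice and no expression level, and no gene's level can be set against another's. They carry no sign of whether a probe was above background, and defining markers of liver cells cannot be checked for presence. Base 2 was inferred and higher values were read as brighter signal. The number of arrays limits the precision. In RNA of whole liver, fewer cells of a type and less RNA per cell cannot be told apart. Each difference is the mutant mean less the wild-type mean (log2) and is given ± its standard error from the fit with limma. A gene passed when its p-value from that fit, adjusted by the Benjamini-Hochberg method over all 28042 rows (genes and unnamed probes), was under 0.05. The 4 mice of a group were different animals, and the p-values measure the spread between them.

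Of the 56 genes 8 passed, 6 higher and 2 lower in the mutants. Cxcl14, Ccl7, Ccr1, Ccl6, Ccl24 and Ackr2 rose, and Cxcl11 and Ccl21a fell. The share that passed, 14.3%, lay near the 15.5% of all rows that passed (6.52% higher and 8.93% lower), and was no higher than the 17.6% of all named genes. At an unadjusted p under 0.05 by limma the count was 18 of the 56, against 30.3% of all rows. The median difference was 0.22 over the 56 genes, 0.08 over all rows and 0.0088 over all named genes. The median of the 56 genes was 0.34 with the arrays as deposited, 0.10 with the control features of the arrays as a covariate and 0.08 without wild-type mice 2 and 3. The mutant and wild-type mice did not overlap for 12 of the 56 genes (21.4%), against 24.6% of all rows. The share of genes that passed was thus near that of all rows, and what follows describes single members. Counts given below for pathway and marker lists are likewise to be set beside these shares of all rows. Among the ligands 4 rose and 2 fell of 35, and among the receptors 2 rose and 0 fell of 21 by limma. At an unadjusted p under 0.05 by limma, 5 ligands were higher and 6 lower, and 5 receptors higher and 2 lower. Of all 28042 rows, 3845 were higher and 4649 lower at that limit.

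**Figure D1:**
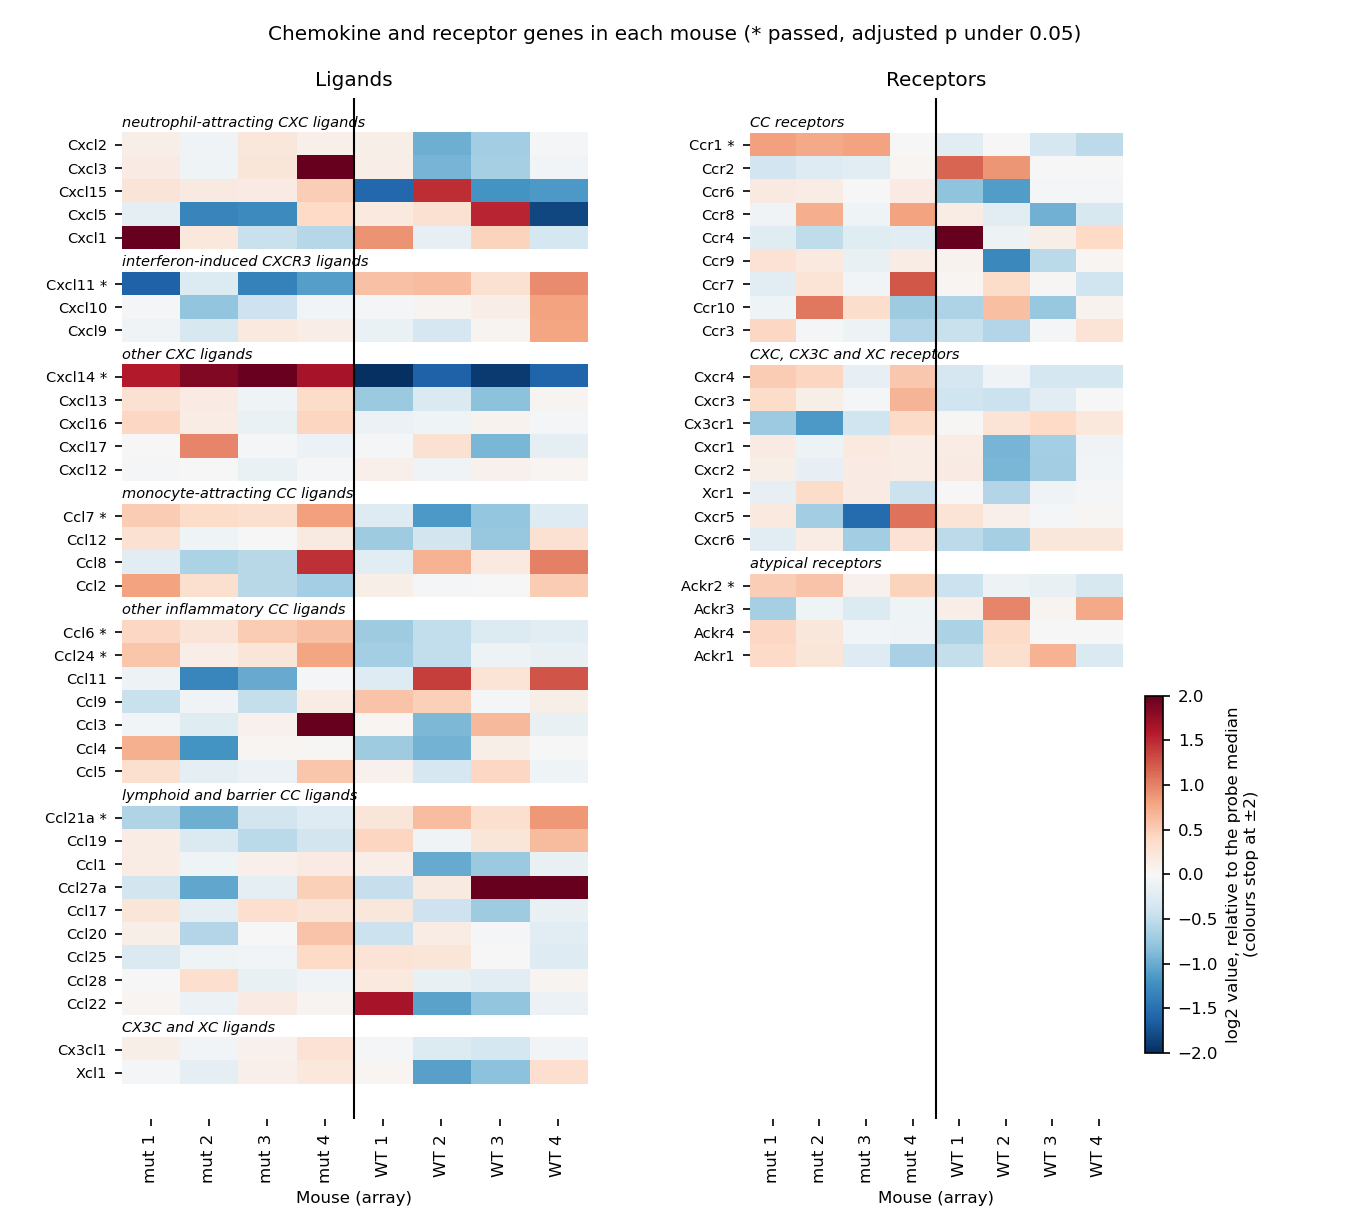
Values of the 56 genes in each of the 8 mice, with ligands on the left and receptors on the right. Rows are genes grouped by role, columns are mice, and colour is the log2 value relative to the probe median after the arrays were scaled, with colours stopping at ±2. Stars mark the 8 genes that passed, and Cxcl14 shows the sharpest split, with all mutants at or above 1.59 and all wild-type mice at or below -1.61.

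Promoter sequences of the genes that passed are shown for those in which a searched motif was found. The 250 bases before the annotated start of each gene were taken from a set of RefSeq promoters (build GRCm38.p6). The set held a promoter for 43 of the 56 genes and for 5 of the 8 that passed (Cxcl14, Ccl6, Ccr1, Ackr2 and Ccl21a). The other genes are in RefSeq but not in this set. Both strands were searched for the E-box bound by Clock and Arntl (CACGTG), the D-box (TTATGNAA), the ROR element (TNGGTCA), an NF-kB site (GGGA and CC with 4 bases of any kind between them), an interferon element (GAAA and GAAA with 2 bases of any kind between them) and the TATA box (TATAAA), with N for any base. Capitals mark the motif found.
Cxcl14: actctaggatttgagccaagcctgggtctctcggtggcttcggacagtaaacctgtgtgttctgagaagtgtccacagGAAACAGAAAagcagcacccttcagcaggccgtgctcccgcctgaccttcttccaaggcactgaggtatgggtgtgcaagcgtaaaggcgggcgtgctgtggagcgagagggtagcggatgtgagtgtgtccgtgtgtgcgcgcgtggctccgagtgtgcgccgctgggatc
Ccr1: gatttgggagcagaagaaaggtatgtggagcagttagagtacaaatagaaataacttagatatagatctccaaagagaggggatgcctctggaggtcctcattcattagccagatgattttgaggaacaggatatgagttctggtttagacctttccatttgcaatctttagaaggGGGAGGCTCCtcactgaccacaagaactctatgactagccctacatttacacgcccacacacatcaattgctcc
Ackr2: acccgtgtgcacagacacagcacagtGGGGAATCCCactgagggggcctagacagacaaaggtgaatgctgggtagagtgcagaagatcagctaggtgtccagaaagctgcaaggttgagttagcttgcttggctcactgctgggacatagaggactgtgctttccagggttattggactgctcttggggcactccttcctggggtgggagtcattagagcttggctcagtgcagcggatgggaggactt
These stretches lie at chr13:56296552-56296801 (minus strand), chr9:123968693-123968942 (minus strand) and chr9:121898105-121898354 (plus strand). The letters of the interferon element begin 172 bases before the start of Cxcl14, and those of the NF-kB site begin 74 bases before the start of Ccr1 and 224 before that of Ackr2. The promoters of Ccl6 and Ccl21a held none of the 6 motifs in this window, and an E-box or D-box was found before none of these 5 genes. Over the 47 promoters of the 43 genes the NF-kB letters occurred in 19 (40.4%) and the interferon letters in 3 (6.38%), against 17.7% and 2.98% of 32544 RefSeq promoters of the same length. The E-box letters occurred in 2 (4.26%) against 6.03%, the D-box in 1 (2.13%) against 3.07%, the ROR element in 9 (19.1%) against 9.23% and the TATA box in 13 (27.7%) against 12.3%. A match is a run of letters, and binding was not measured.

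Cxcl14 rose far beyond the spread between mice. It encodes a CXC chemokine made constitutively by epithelia and known to attract monocytes and dendritic cells. Its values were 1.59, 1.85, 1.98 and 1.65 in mutant mice 1 to 4 and -2.34, -1.61, -1.92 and -1.61 in wild-type mice 1 to 4. Every mutant lay above every wild-type mouse, by more than 3 on the log2 scale. The difference was 3.64 ± 0.19 (12.5-fold, adjusted p = 0.000109), with a mutant mean of 1.77 ± 0.18 (SD, n = 4) and a wild-type mean of -1.87 ± 0.34 (SD, n = 4). The call held in all 18 alternative settings, in which the difference ran from 3.48 to 4.11. A single probe measured the gene.

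The other homeostatic and mucosal CXC ligands did not pass. Cxcl13, which draws B cells through Cxcr5, differed by 0.63 ± 0.22 (adjusted p = 0.0914), and it passed only when wild-type mouse 4 was left out (adjusted p = 0.0409). Cxcl16, a membrane-bound ligand of Cxcr6 known from liver endothelium, differed by 0.26, and Cxcl17 by 0.41. Cxcl12, the ligand of Cxcr4, had the narrowest spread of these genes and differed by -0.09 ± 0.09 (adjusted p = 0.517). The sign of that value turned to 0.03 with the arrays as deposited.

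**Figure D2:**
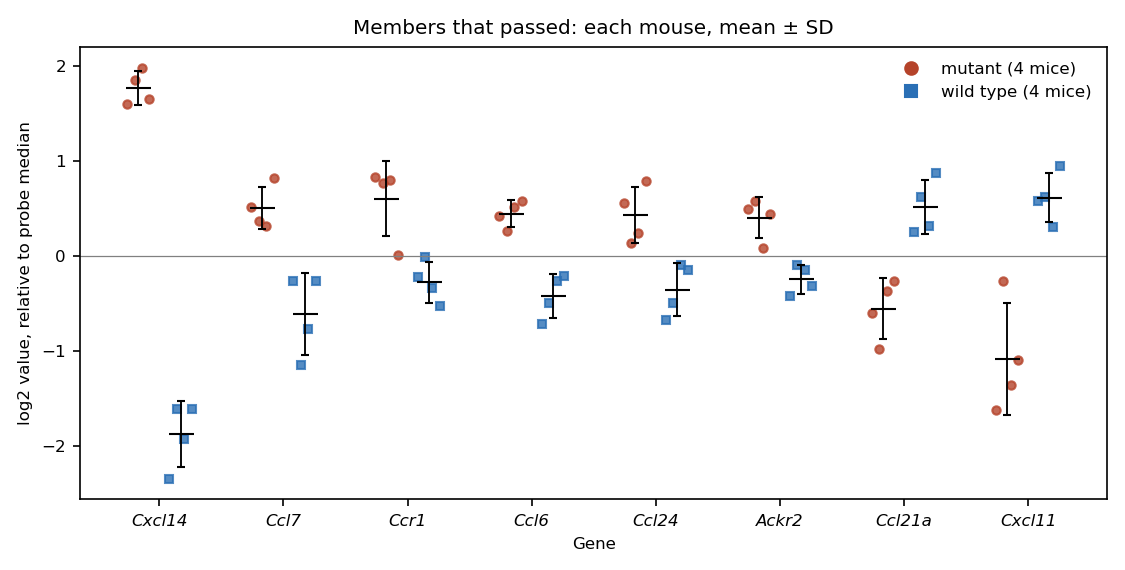
The 8 genes that passed, with the log2 value relative to the probe median on the vertical axis. Each point is 1 mouse (circles mutant, squares wild type) and the bars give the mean ± SD of 4 mice. The groups do not overlap for any of the 8 genes, and the distance between them is widest for Cxcl14 and narrowest for Ccr1, where mutant mouse 4 (0.01) lies next to wild-type mouse 2 (-0.01).

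Among the interferon-induced ligands of Cxcr3, Cxcl11 fell. These chemokines draw activated T cells and NK cells. Cxcl11 lay at -1.61, -0.27, -1.35 and -1.10 in mutant mice 1 to 4 and at 0.58, 0.62, 0.31 and 0.94 in wild-type mice 1 to 4. All mutants were lower than all wild-type mice, and mutant mouse 2 stood closest to them. The difference was -1.70 ± 0.29 (3.24-fold lower, adjusted p = 0.00825). RefSeq lists Cxcl11 in the C57BL/6J assembly as a transcribed pseudogene, and the mice were of mixed 129sv and C57Bl/6 background. Cxcl10 differed by -0.56 ± 0.24 (adjusted p = 0.163) and did not pass, although its groups did not overlap: the mutants ran from -0.78 to -0.04 and the wild-type mice from -0.03 to 0.80. Cxcl9 differed by -0.11 (0.01 with the arrays as deposited). Leaving out wild-type mice 2 and 3 together left Cxcl11 at -1.84 with an adjusted p of 0.0546. Their common receptor gene Cxcr3 differed by 0.55 ± 0.18 (adjusted p = 0.0799) and passed as higher with the arrays as deposited.

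None of the 5 neutrophil-attracting ligands passed. Cxcl1, Cxcl2, Cxcl3 and Cxcl5 are ligands of Cxcr2 and, for some, of Cxcr1. Cxcl2 differed by 0.49 ± 0.25 (adjusted p = 0.201), Cxcl1 by 0.10 ± 0.59 and Cxcl5 by -0.65 ± 0.72. The last 2 varied widely between mice. Cxcl1 reached 2.02 in mutant mouse 1 and lay between -0.57 and 0.90 in the other 7 mice, and Cxcl5 ran from -1.82 to 1.52 within wild type alone. Cxcl3 differed by 0.99 ± 0.51, and its value of 2.13 in mutant mouse 4 stood apart from the other 3 mutants, at -0.08 to 0.24. The neutrophil marker list rose in 1 of 9 genes, S100a8 (1.26 ± 0.34, adjusted p = 0.0431), while Camp (1.81), Ngp (1.42) and Ltf (-0.91) did not pass. Of the 9 differences 7 were positive, with list means of -0.21 to 0.77 in mutants and -0.50 to 0.02 in wild type; its part in these values was not tested.

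The 2 probes of Cxcl15, known as lungkine and as a chemokine of lung epithelium, moved in opposite directions. Probe A_52_P820196 lay at 0.59, 0.69, 0.37 and 0.93 in mutant mice 1 to 4 and at -3.03, -0.39, -2.44 and -2.002 in wild-type mice 1 to 4. It was higher in every mutant, by 2.61 ± 0.52 (limma over all probes, adjusted p = 0.0137). Probe A_51_P384187 differed by -0.85 ± 0.77 (adjusted p = 0.435), with a value of 3.33 in wild-type mouse 2 and values from -0.33 to 0.06 in the other 7 mice. The mean of both probes, 0.88 ± 0.62 (adjusted p = 0.319), stands for neither. The gene passed without wild-type mouse 2.

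Of the 4 CC ligands grouped here as monocyte attractants, Ccl7 rose. Its gene values were 0.51, 0.37, 0.32 and 0.82 in mutant mice 1 to 4 and -0.26, -1.15, -0.77 and -0.26 in wild-type mice 1 to 4. Every mutant was higher, and wild-type mouse 2 was the lowest mouse. The difference was 1.11 ± 0.23 (2.16-fold, adjusted p = 0.0163). The rise rested on 1 of its 2 probes. Probe A_52_P208763 rose by 1.69 ± 0.24 (adjusted p = 0.00400), while probe A_51_P436652 differed by 0.54 ± 0.26 (adjusted p = 0.193) and followed the control features of the arrays (r = 0.95 over 8 arrays). Without wild-type mice 2 and 3 the gene differed by 0.76 (adjusted p = 0.0620).

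The other monocyte attractants did not pass. Ccl2, the main ligand of Ccr2, differed by -0.18 ± 0.34 (adjusted p = 0.731) and overlapped fully between groups, with mutants from -0.68 to 0.80. Ccl12 differed by 0.48 ± 0.24 (adjusted p = 0.2004), and it passed without wild-type mouse 4 (0.71, adjusted p = 0.0366). Ccl8 differed by -0.41 ± 0.50. Ccl2, Ccl7, Ccl11, Ccl12, Ccl8 and Ccl1 follow one another on chromosome 11, and within that row the differences ran from -1.28 for Ccl11 to 1.11 for Ccl7.

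Of the 7 other inflammatory CC ligands Ccl6 and Ccl24 rose. Ccl6, a macrophage chemokine of rodents that acts on Ccr1, lay at 0.42, 0.26, 0.51 and 0.58 in mutant mice 1 to 4 and at -0.71, -0.50, -0.27 and -0.21 in wild-type mice 1 to 4. All mutants were higher, by 0.87 ± 0.14 (1.82-fold, adjusted p = 0.00718), and the call held in all 18 settings. Ccl24, known as eotaxin-2 and as a ligand of Ccr3, lay at 0.55, 0.14, 0.24 and 0.79 in mutants and at -0.68, -0.50, -0.10 and -0.15 in wild type. It rose by 0.79 ± 0.20 (1.73-fold, adjusted p = 0.0329), and its 2 probes rose alike (0.81 ± 0.21 and 0.77 ± 0.19, r = 0.99 over 8 arrays). The call of Ccl24 was lost on leaving out mutant mouse 1, 3 or 4, or wild-type mouse 1, 2 or 4, with adjusted p from 0.0511 to 0.0837.

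The eotaxin Ccl11 went the other way without passing. Its values were -0.11, -1.30, -1.005 and -0.03 in mutants and -0.25, 1.39, 0.27 and 1.26 in wild type, a difference of -1.28 ± 0.45 (adjusted p = 0.102). Wild-type mouse 1 lay within the range of the mutants. Ccl9, like Ccl6 a ligand of Ccr1, differed by -0.49 ± 0.20 (adjusted p = 0.149). Ccl3, Ccl4 and Ccl5 differed by 0.84 ± 0.78, 0.28 ± 0.42 and 0.12 ± 0.22. Ccl3 was at 3.21 in mutant mouse 4 and between -0.90 and 0.64 in the other 7 mice. Eosinophil and mast cell markers were mixed, with 1 of 6 higher (Tpsb2, 2.46) and 1 lower (Mcpt4, -2.62), and Cma1 differed by 0.66.

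Among 9 CC ligands of lymphoid tissue and barriers, Ccl21a fell. It encodes a ligand of Ccr7 that guides dendritic cells and naive T cells. Its values were -0.60, -0.98, -0.37 and -0.26 in mutant mice 1 to 4 and 0.25, 0.61, 0.32 and 0.87 in wild-type mice 1 to 4. The groups were apart, by -1.07 ± 0.21 (2.09-fold lower, adjusted p = 0.0128). The near-identical copies Ccl21b and Ccl21c can bind the same probe and are not told apart here. Without wild-type mice 2 and 3 the difference was -1.11 (adjusted p = 0.0776). Ccl19, the other ligand of Ccr7, differed by -0.57 ± 0.20 (adjusted p = 0.102). Of its 2 probes A_51_P458258 passed alone (-0.77 ± 0.21, adjusted p = 0.0467) with groups that overlapped.

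Ccl27a, a chemokine of skin, split the wild-type mice. It lay at 2.74 and 2.88 in wild-type mice 3 and 4, at -0.47 and 0.17 in wild-type mice 1 and 2, and from -1.03 to 0.48 in the mutants. The difference of -1.61 ± 0.81 did not pass (adjusted p = 0.201). The near-identical copy Ccl27b is not told apart here. Ccl27a, Ccl19 and Ccl21a lie together on chromosome 4, and all 3 had negative differences, of which only that of Ccl21a passed. Markers of squamous and gut epithelium, taken as 1 list, did not move one way, while most of the squamous genes fell. Of 14 genes 6 fell, the squamous genes Crct1 (-7.32), Krt4 (-6.58), Krt15 (-5.76), Krt13 (-4.17) and Krt5 (-3.92) and the gut gene Fabp2 (-1.19), and 1 rose, the stomach gene Tff1 (2.33). The other 7 had positive differences without passing, among them Gkn2 (2.35), Vil1 (1.40), Lgals4 (0.95), Cdx1 (0.92) and the squamous gene Krt14 (0.10). The list median was 0.25. The list means, 0.50 to 1.58 in wild type and -0.82 to -0.05 in mutants, thus differ in sign from the median. Their part in the values of the barrier chemokines was not tested.

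The remaining ligands of this group lay closer to 0. Ccl1, Ccl17, Ccl20, Ccl22, Ccl25 and Ccl28 differed by -0.08 to 0.52 and none passed. The sign of Ccl25 (-0.08) turned with the arrays as deposited, and that of Ccl28 (0.06) with quantile scaling. Cx3cl1, the membrane-bound fractalkine, differed by 0.29 ± 0.12 (adjusted p = 0.166) and Xcl1, a product of T and NK cells, by 0.40 ± 0.32.

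**Figure D3:**
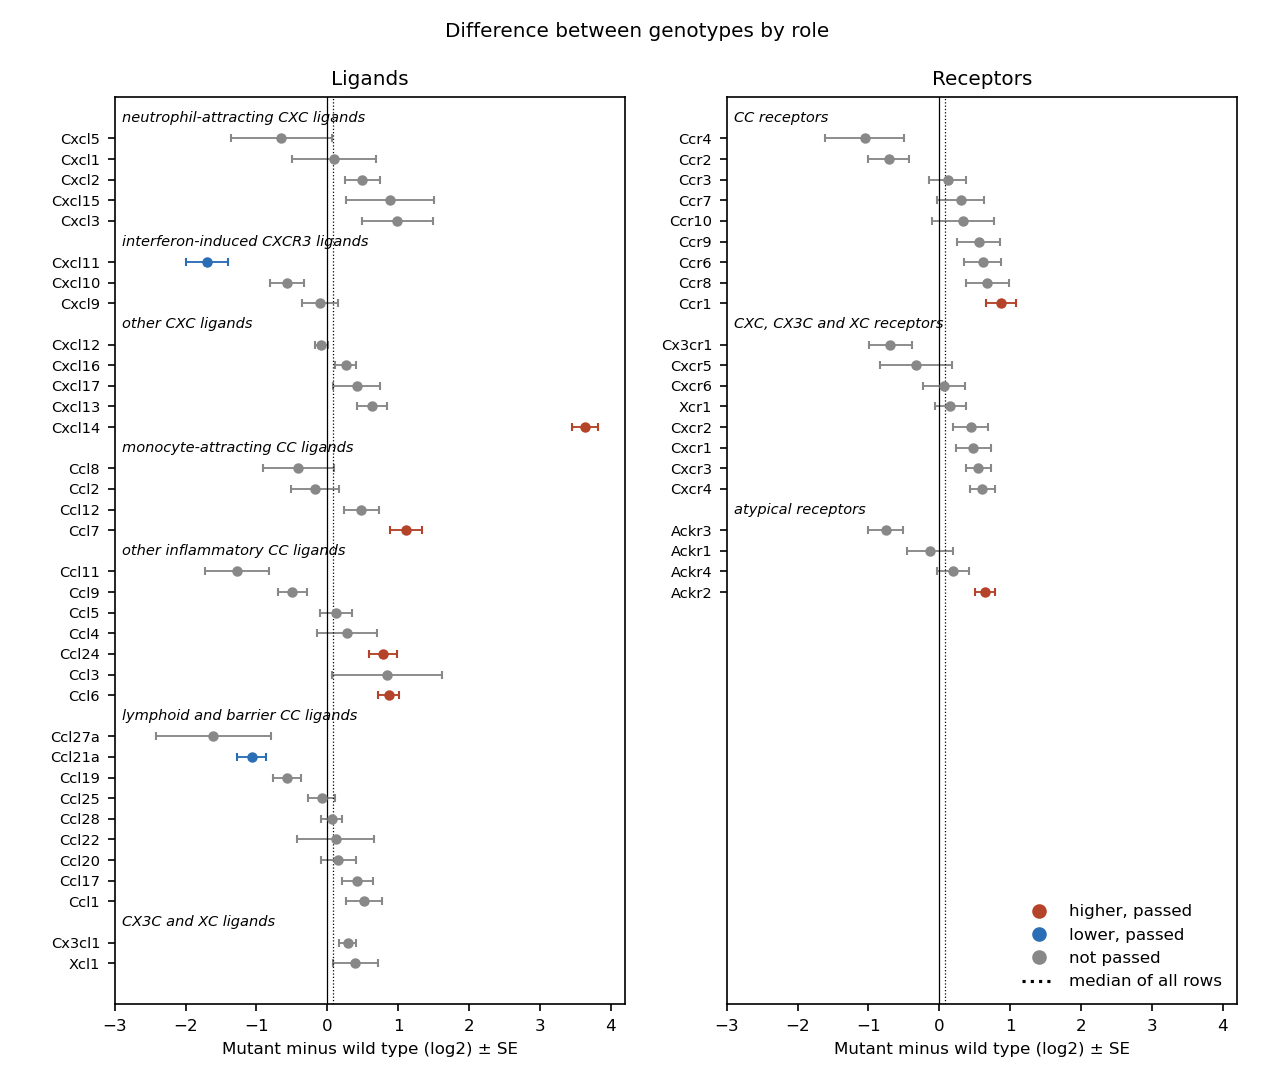
Mutant minus wild type (log2, horizontal axis) with the standard error of the limma fit for all 56 genes, ordered within each role. Red and blue points passed as higher and lower, grey points did not pass, and the dotted line marks the median of all rows (0.08). Cxcl14 at 3.64 lies far outside the range of the other genes, -1.70 to 1.11.

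Ccr1 was the only one of 9 CC receptor genes that passed when probes were averaged. It encodes a receptor of monocytes, macrophages and neutrophils for Ccl3, Ccl5, Ccl6, Ccl7 and Ccl9. Its values were 0.83, 0.76, 0.80 and 0.01 in mutant mice 1 to 4 and -0.22, -0.01, -0.34 and -0.53 in wild-type mice 1 to 4. Of the mutants 3 lay close together and the fourth at the edge of wild type. The gene rose by 0.88 ± 0.21 (1.83-fold, adjusted p = 0.0308). The call was lost on leaving out any of the first 3 mutants, or wild-type mouse 1, 3 or 4, with adjusted p from 0.0568 to 0.0814, and it held without mutant mouse 4. Ccr2, the receptor of inflammatory monocytes, differed by -0.71 ± 0.29 (adjusted p = 0.142). Of 7 monocyte markers 0 passed by limma (2 at an unadjusted p under 0.05). Ly6c2 differed by 0.75, F13a1 by -0.94 and Plac8 by 0.84, with list means of -0.20 to 0.60 in mutants and -0.34 to 0.29 in wild type.

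A single probe of Ccr4, a receptor of T helper cells and regulatory T cells for Ccl17 and Ccl22, fell in every mutant. Probe A_51_P444473 lay at -0.55, -0.80, -0.57 and -0.57 in mutant mice 1 to 4 and at 0.54, 0.76, 0.97 and 0.89 in wild-type mice 1 to 4. The groups were well apart, by -1.41 ± 0.13 (limma over all probes, adjusted p = 0.000844). The second probe, A_51_P444476, differed by -0.69 ± 1.17 (adjusted p = 0.685), with 4.63 in wild-type mouse 1 and -0.94 to 0.12 in the other 7 mice. Averaged, the gene differed by -1.05 ± 0.55 (adjusted p = 0.210), and it passed under quantile scaling and when the control-feature median was a covariate. Its ligand genes Ccl17 and Ccl22 differed by 0.42 and 0.12 and did not pass. Of 14 T and NK cell markers 0 passed by limma (4 at an unadjusted p under 0.05), with 10 positive and 4 negative differences and a median of 0.26. Cd2, Cd28 and Cd4 differed by 1.06, 0.52 and 1.02, and the T cell receptor component gene Cd3e by -1.12. Among these Cd28 followed the control features of the arrays (r = 0.91). List means were -0.08 to 0.43 in mutants and -0.57 to 0.33 in wild type.

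The other CC receptors did not pass. Ccr6 differed by 0.61 ± 0.26 (adjusted p = 0.157) with groups that did not overlap, Ccr8 by 0.68 ± 0.31, Ccr9 by 0.55 ± 0.31, Ccr7 by 0.30 ± 0.33, Ccr10 by 0.33 ± 0.44 and Ccr3 by 0.12 ± 0.26. The sign of Ccr3 turned with quantile scaling.

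None of the 8 CXC, CX3C and XC receptors passed. Cxcr4, the receptor of Cxcl12 on most leukocytes and stem cells, came nearest, with 0.51, 0.43, -0.16 and 0.53 in mutant mice 1 to 4 and -0.34, -0.07, -0.35 and -0.34 in wild-type mice 1 to 4. Mutant mouse 3 lay within the range of wild type. The difference was 0.61 ± 0.18 (adjusted p = 0.0570), and it passed with the arrays as deposited (0.73, adjusted p = 0.0290), with unnamed probes left out of the test (adjusted p = 0.0435) and without mutant mouse 3 (0.77, adjusted p = 0.0110). Neither of its 2 probes passed by limma over all probes (0.82 ± 0.32, adjusted p = 0.127, and 0.39 ± 0.29, adjusted p = 0.337). The 2 probes were not correlated over the 8 arrays (r = 0.036). Cx3cr1, the fractalkine receptor of monocytes and macrophages, differed by -0.69 ± 0.30 (adjusted p = 0.169), and it passed without mutant mouse 4. Its probe A_51_P350853 was lower in all mutants (-1.42 ± 0.42, adjusted p = 0.0594) while probe A_52_P99810 differed by 0.03 ± 0.30. The neutrophil receptor genes Cxcr1 and Cxcr2 differed by 0.48 ± 0.24 and 0.44 ± 0.25. Cxcr5, Cxcr6 and Xcr1 differed by -0.33, 0.06 and 0.16, and the sign of Cxcr6 turned with quantile scaling.

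Of the 4 atypical receptors Ackr2 rose. It encodes the scavenger of inflammatory CC chemokines, among them Ccl2, Ccl5, Ccl7 and Ccl11. Its values were 0.50, 0.58, 0.09 and 0.44 in mutant mice 1 to 4 and -0.42, -0.10, -0.15 and -0.32 in wild-type mice 1 to 4. All mutants were higher, and mutant mouse 3 was nearest to wild type. The difference was 0.65 ± 0.14 (1.57-fold, adjusted p = 0.0208). The call was lost on leaving out mutant mouse 1, 2 or 4, or wild-type mouse 4, with adjusted p from 0.0508 to 0.0584. It was also lost with same-numbered mice as blocks and without wild-type mice 2 and 3 (adjusted p by limma up to 0.0797). Ackr3, a scavenger of Cxcl11 and Cxcl12, differed by -0.75 ± 0.25 (adjusted p = 0.0809), with mutants from -0.66 to -0.08 and wild-type mice from 0.06 to 0.98. Ackr3 lies on chromosome 1 as Per2 does, with 15 protein-coding genes between them in RefSeq. Ackr4, the scavenger of Ccl19, Ccl21 and Ccl25, differed by 0.19 and Ackr1, the Duffy antigen, by -0.13.

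Ligands and receptors that bind each other showed the following differences side by side. For Ccr1 (0.88, passed), the ligand genes Ccl6 (0.87) and Ccl7 (1.11) passed, while Ccl9 (-0.49), Ccl3 (0.84) and Ccl5 (0.12) did not. For Ccr3 (0.12), Ccl24 (0.79) passed and Ccl11 (-1.28) did not. For Ccr7 (0.30), Ccl21a (-1.07) passed and Ccl19 (-0.57) did not. For Cxcr3 (0.55), Cxcl11 (-1.70) passed, and Cxcl10 (-0.56) and Cxcl9 (-0.11) did not. For Ccr2 (-0.71), Ccl7 (1.11) passed, and Ccl2 (-0.18) and Ccl12 (0.48) did not. Of these receptor genes only Ccr1 passed.

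Of the 18 genes with 2 probes, 5 had probes of opposite sign (Ackr1, Ccr3, Cx3cr1, Cxcl15 and Xcr1). The correlation of both probes over the 8 arrays was over 0.5 for 8 genes and under 0 for 4. Taken one by one, 12 of the 74 probes passed, 8 higher and 4 lower, against 16.3% of 41174 probes (6.36% higher and 9.92% lower). They were all probes of the 8 genes that passed, except probe A_51_P436652 of Ccl7, and 1 probe each of Ccl19, Ccr4 and Cxcl15.

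**Figure D4:**
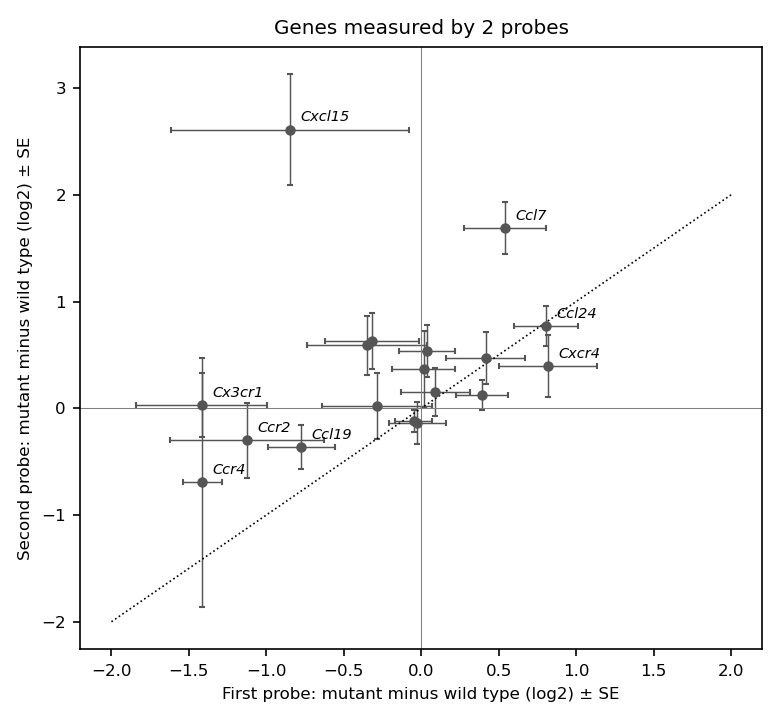
The 18 genes measured by 2 probes, with the difference (mutant minus wild type, log2 ± SE) of the first probe on the horizontal and of the second on the vertical axis; the dotted line marks equal differences. Genes with a difference over 0.7 in either probe are named. Ccl24 lies on the line, while Cxcl15 (-0.85 and 2.61) and Cx3cr1 (-1.42 and 0.03) lie far from it.

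Some members moved with the control features of the arrays. Wild-type mice 2 and 3 had lower control features (-0.66 and -0.43) than the other 6 arrays (-0.04 to 0.13). Over the 8 arrays 6 of the 56 genes (10.7%) correlated with the median of these features at r over 0.9, a limit set after the values were seen, against 13.4% of all rows. These were Cxcl2, Ccl1, Xcl1, Ccr9, Cxcr1 and Cxcr2, and 0 of them passed by limma. Cxcl2, for example, lay at 0.12, -0.07, 0.22 and 0.10 in mutant mice 1 to 4 and at 0.12, -0.98, -0.70 and -0.04 in wild-type mice 1 to 4. Single probes did the same for Ccl7, Cx3cl1 and Xcr1, so that 10 of 74 probes lay over this limit. Among the genes that passed, r was 0.80 for Ccl7 and -0.47 to 0.45 for the other 7. With wild-type mice 2 and 3 left out, 3 members passed (Ccl6, Cxcl14 and Cxcl15) of which 2 were among the 8, and the share of all rows that passed was 6.30%.

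**Figure D5:**
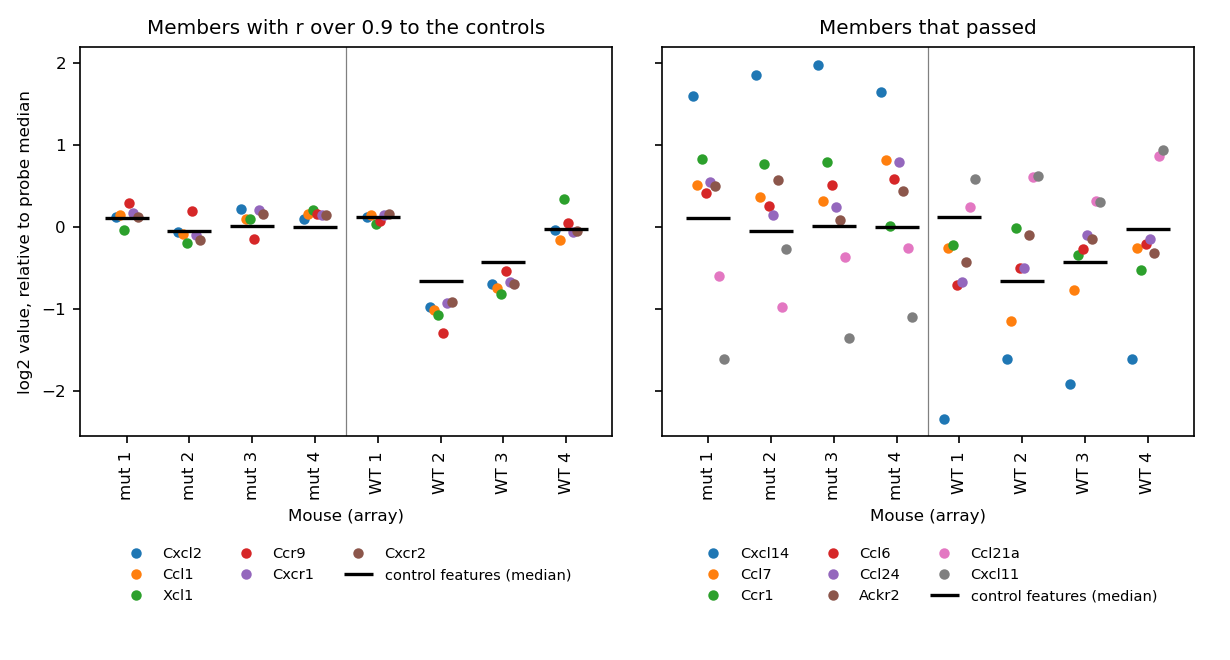
Values in each mouse (log2, relative to the probe median) of the 6 genes that correlated with the control features at r over 0.9 (left) and of the 8 genes that passed (right). Black bars give the median of the control features of that array. On the left all points drop with the bars in wild-type mice 2 and 3, and on the right Cxcl14 is as low in wild-type mice 1 and 4 as in 2 and 3.

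Macrophage markers mostly rose. Of 12 markers of Kupffer cells and macrophages 10 rose and 0 fell by limma, with list means of 0.43 to 0.71 in mutants and -0.75 to -0.29 in wild type. Of all rows 6.52% passed as higher and 8.93% as lower. The scavenger receptor gene Cd163 (1.52), Vsig4 (1.17) and the Kupffer cell lectin gene Clec4f (1.13) had the smallest p-values. The median of that list was 0.91. The members that rose differed by 3.64 (Cxcl14), 1.11 (Ccl7), 0.88 (Ccr1), 0.87 (Ccl6), 0.79 (Ccl24) and 0.65 (Ackr2). The monocyte and macrophage receptor genes Ccr2 (-0.71) and Cx3cr1 (-0.69) had negative differences that did not pass. Their single probes were unlike, at -1.12 and -0.30 for Ccr2 and -1.42 and 0.03 for Cx3cr1. The part of these markers in the values of the members was not tested. In dendritic cells Batf3 rose (1.02) and Itgax fell (-0.72) of 7 genes, with Flt3 at 0.61. In B and plasma cells Cr2 (0.75) and Cd79a (1.65) rose of 9, with Blk at 0.43. Endothelial genes had 1 of 11 higher (Stab1, 0.64, with Clec4g at 0.84 and Lyve1 at 0.84 not passing). Stellate and fibroblast genes had 5 higher and 1 lower of 11. Hgf (0.79), Col3a1 (0.86), Lum (0.54), Col1a1 (1.12) and Col1a2 (0.59) rose and Lrat, which stores retinoid in stellate cells, fell (-0.45). The filament and actin genes Des (-1.79) and Acta2 (-0.41) did not pass. Hepatocyte genes had 1 of 7 lower (Ttr, -0.71, with Hnf4a at 0.29 and Apoa1 at 0.33 not passing). Cholangiocyte genes had 1 of 6 higher (Sox9, 0.88, with Cftr at 0.73 and Sctr at 1.51 not passing). Platelet genes had 1 higher and 1 lower of 6 (Itgb3, 1.94, and Gp1bb, -0.57), and erythroid genes 2 of 6 lower (Klf1, -0.95, and Alas2, -0.49, with Epor at -0.42 not passing).

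Most genes of signals that induce chemokines did not pass. In a list of 30 cytokine, Toll-like receptor and NF-kB genes 8 rose, 1 fell and 21 did not pass, with a median of 0.24. Of all rows 6.52% passed as higher and 8.93% as lower. The interleukin 1 receptor gene Il1r1 rose by 1.78 ± 0.17 (adjusted p = 0.00101), Il6 by 1.40 ± 0.18 (adjusted p = 0.00268) and the interferon-gamma-inducing cytokine gene Il18 fell by 0.97 ± 0.12 (adjusted p = 0.00212). The lipopolysaccharide receptor genes Cd14 (1.002) and Tlr4 (0.46), their adaptor Myd88 (0.47), Irak3 (0.98), Map3k8 (0.66) and Tnfrsf1b (0.78) also rose. Among them Tlr4 correlated with the control features of the arrays at r = 0.81. Tnf differed by -0.26, Il1b by 0.29 and Ifng by 0.28, and none of these 3 passed. Il6 was thus the only cytokine gene of the list that rose.

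Genes that relay chemokine signals moved in both directions. Of 29 genes of receptor signalling 7 rose and 4 fell, with a median of 0.09. The shares of all rows that passed were 6.52% higher and 8.93% lower. Rgs16, which shuts off G protein signals, fell by 2.88 ± 0.26 (adjusted p = 0.000876), while Rgs2, of the same family, rose by 0.72 ± 0.13 (adjusted p = 0.0115). The inhibitory G protein subunit gene Gnai3 fell by 0.48 ± 0.10 (adjusted p = 0.0178), Dpp4, a peptidase that trims chemokines, by 0.58, and the adhesion kinase gene Ptk2b by 0.51. The leukocyte genes Vav1, Rac2, Was, Fgr and Pik3r5 rose by 0.47 to 0.80 and the arrestin gene Arrb1 by 0.73. Among them Pik3r5 correlated with the control features of the arrays at r = 0.77. Of 20 adhesion genes Icam1 (0.57) and Itgb2 (0.51) rose, the P-selectin gene Selp (-0.61) fell and 17 did not pass. Of all rows 15.5% passed.

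Of 6 genes with other names, of chemokines or of related attractants and receptors, 2 rose and 0 fell. Of all rows 6.52% passed as higher. Cmklr1, the receptor of the attractant chemerin, rose by 2.92 ± 0.20 (adjusted p = 0.000317), with a wild-type mean of -1.45 ± 0.26 (SD, n = 4) and a mutant mean of 1.47 ± 0.32 (SD, n = 4). Its ligand gene Rarres2 differed by -0.28 (adjusted p = 0.135). Ccrl2, a receptor-like gene that presents chemerin, rose by 0.54 ± 0.13 (adjusted p = 0.0327). The platelet chemokine genes Ppbp and Pf4 differed by 1.01 (adjusted p = 0.0603) and 0.45 (adjusted p = 0.203).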

How the data were processed

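The study measured liver RNA of 4 mutant and 4 wild-type mice on Agilent arrays labelled with cyanine 3, per the labels' protocols. The deposited log2 values had been normalised by the authors by a method not given in the sources used here and centred on each probe's median; the log base and direction are not stated. Of 41252 probes 78 control features were set aside. Each array was shifted to a common 75th percentile, probes of a single symbol were averaged, and genotypes were compared by limma (version 3.58.1, R version 4.3.3; two-sided, eBayes, Benjamini-Hochberg over all rows), also per probe. The columns of the table matched the 8 samples, and 0 were unused. The 56 symbols matched those in RefSeq by gene number. The fit was checked on simulated data. Named are every member that passed, the non-passing member with the smallest p of each role, and the 3 genes of each list with the smallest p; others were named after their values were seen. The members and lists were chosen with earlier results of these data known. A dim-probe filter could not be applied without levels. Alternatives covered scaling, variance model, blocks, arrays left out, probe summary and rows tested. The control-feature covariate was chosen after seeing the data. Same-numbered mice shared only a number (r = -0.10 to 0.10 between their deviations), so no pairing was used. Figures were drawn with matplotlib 3.10.9.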

Additional observations from a re-analysis of the deposited data

Results flagged for a closer look

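Within each group of 4 mice, the gap of the highest or lowest mouse to its nearest neighbour was compared with the range of the group. Of 112 such groups (56 genes, 2 genotypes) 12 had a mouse that stood apart by Dixon's critical value, which chance alone passes in about 1 of 20 groups. Mutant replicate 4 was far above the other mutants for Cxcl3 (2.13) and Ccl3 (3.21) and below them for Ccr1 (0.0096). Mutant replicate 3 was below the others for Cxcr4 (-0.16), Cxcl12 (-0.13) and Ccr6 (-0.0060), and mutant replicate 2 was above them for Cxcl17 (0.97) and below for Cxcr2 (-0.16) and Ccr4 (-0.51). Wild type replicate 2 stood above the other wild-type mice for Cxcl15 (1.47) and Cxcr4 (-0.074) and below them for Xcr1 (-0.58). For Ccr1 and Cxcr4 the mutant that stood apart lay nearest to wild type, and without it the adjusted p from limma was 0.00712 and 0.0110. Leaving out the mutant nearest to wild type widens the difference by construction, so these p-values add no weight to either difference.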

How the results depend on the processing

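Of the 8 members that passed, Cxcl14 and Ccl6 did so in all 18 settings, Cxcl11, Ccl21a and Ccl7 in all but that without wild type replicates 2 and 3, and Ackr2, Ccr1 and Ccl24 in 4, 2 and 2 of the 8 settings that leave out 1 mouse. No difference of a member that passed changed sign. Leaving out 1 mouse gave 5 to 8 member genes (5 without mutant replicate 1), 8 to 10 member probes against 12, 12 to 19 pathway genes against 25 and 28 to 35 marker genes against 37. Without wild type replicates 2 and 3, 3 member genes, 6 member probes, 13 pathway genes and 17 marker genes passed, with fewer mice in the fit. An unadjusted p under 0.05 gave 18 member genes and 23 member probes. The median of the control features as a covariate, chosen after seeing the data, gave 15 pathway genes and 8 member genes. Of these members 6 were among the main 8, Ccl19 and Ccr4 were added, and Ccl24 and Ccr1 were lost. With the arrays as deposited, 10 members passed (8 higher and 2 lower, with Cxcr3 and Cxcr4 added), and the median difference of all rows moved from 0.08 to 0.20. The median over the members was 0.22, and over the alternatives it ran from 0.08 (without wild type replicates 2 and 3) to 0.34 (as deposited). Calls were gained for Ccr4 with quantile scaling, Cx3cr1 without mutant replicate 4, Cxcr4 without mutant replicate 3, Cxcl15 without wild type replicate 2, and Ccl12 and Cxcl13 without wild type replicate 4. The replicate block gave 6 member genes, 8 member probes, 8 pathway genes and 26 marker genes, and 7.24% of all rows, and since same-numbered mice share only a number this is no measure of a weaker effect. The cause of these changes was not tested. Without levels or background flags, dim probes cannot be told from bright ones.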
